A study of Mus musculus with 6 samples.

Results

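The genes described here encode the nuclear subunits of the mitochondrial respiratory chain and of ATP synthase, as measured in 3T3-L1 adipocytes after exposure to media from leukemia cells. They were chosen by name alone: every gene with a row of its own in the array table whose symbol begins with Nduf, Uqcr, Atp5 or Cox4 to Cox8, together with Sdha, Sdhb, Sdhc, Sdhd, Cyc1 and Cycs. This gave 61 of the 14860 genes on the array that had such a row, namely 27 subunits of complex I, 4 of complex II, 6 of complex III, 10 of complex IV, 8 of complex V and 6 assembly factors of complex I (Ndufaf genes). A further 7 genes of these families shared a row with another gene and are given separately, and 30 were not analysed here, among them Cycs, which encodes cytochrome c.

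3T3-L1 is a mouse preadipocyte line (obtained from ATCC, under 6 passages), and all cells had been differentiated for 7 days with an adipogenic cocktail. The tested cultures then spent 24 hours in leukemia cell conditioned media (LCM), and the control cultures in regular media. For the control media of the arrays no composition is stated: the labels name RPMI1640 with 10% FBS for maintaining the adipocytes, and the methods name DMEM for culturing 3T3-L1 cells. Per the labels, LCM was RPMI1640 with 10% FBS, IL-3 and BME in which 8093 murine acute lymphoblastic leukemia cells had grown for 48 hours, whereas the methods name BV173, a human leukemia line. Whether the regular media held IL-3 and BME, or differed from LCM in the base medium, is not stated, so the base medium, the additives and the leukemia cells' own products cannot be told apart. The comparison asks how media from leukemia cells alter the expression of these genes in adipocytes. Each group comprised 3 biological replicates with an array each, and all values are log2 expression made by the authors with RMA, which corrects background, normalizes the arrays to each other and summarises the probes of a transcript.

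The respiratory chain passes electrons from NADH (through complex I) and from succinate (through complex II) to coenzyme Q, then through complex III and cytochrome c to complex IV, which reduces oxygen. Complexes I, III and IV pump protons across the inner mitochondrial membrane, and complex V uses the resulting gradient to make ATP. In adipocytes the number of mitochondria grows during differentiation, and electrons that leave the chain early are a source of reactive oxygen species.

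Median log2 expression lay between 7.66 and 7.68 in the LCM arrays and between 7.595 and 7.66 in the control arrays. Correlations between arrays of a group were 0.990 to 0.994 for LCM and 0.980 to 0.987 for control, and control replicate 2 had the lowest correlations among the controls (0.980 and 0.984). The counts and medians by complex are therefore given with and without that array, and its exclusion rests on values already seen. Of the markers of adipocytes, Adipoq was at 12.66 to 12.93 in LCM arrays and 13.33 to 13.47 in control arrays. Lep, another, was low, at 5.39 to 5.60 and 5.60 to 6.02. Markers of preadipocytes or fibroblasts were present as well, such as Col1a1 (13.24 to 13.33 and 12.83 to 13.32) and Dlk1 (12.02 to 12.22 and 12.01 to 12.18). Of 8 listed markers of B-lineage leukemia 4 were measured. Their levels, summed on the linear scale and given as log2, were 7.74 to 8.0 in LCM arrays and 7.67 to 8.04 in control arrays. Each was low on its own, with means over the 6 arrays of 4.29 to 6.3, below the median of every array.

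Most genes of the respiratory chain and ATP synthase did not pass the test between LCM and control. Cox6a2, an isoform of a complex IV subunit that is typical of heart and skeletal muscle, rose in LCM. Ndufb3, an accessory subunit in the membrane arm of complex I, and Ndufaf4, an assembly factor of complex I, fell. These were the only 3 of 61 genes that passed at an adjusted p under 0.05 by limma: 1 rose (1.64%), against 2.29% of all genes, and 2 fell (3.28%), against 1.97% of all genes. These shares are close to those over all genes. Over the 61 genes the log2 fold change (LCM minus control) had a median of -0.090, against -0.030 over all genes, and 42 of 61 (68.9%) had a negative value, against 57.5% of all genes. At an unadjusted p under 0.05 were 12 of the 61 genes (19.7%), against 19.6% of all genes, with 11 on the lower side in LCM (18.03%, against 10.3% of all genes) and 1 on the higher side (1.64%, against 9.25% of all genes). Because whole cultures were measured, fewer cells of a type and less RNA per cell cannot be told apart.

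**Figure D1:**
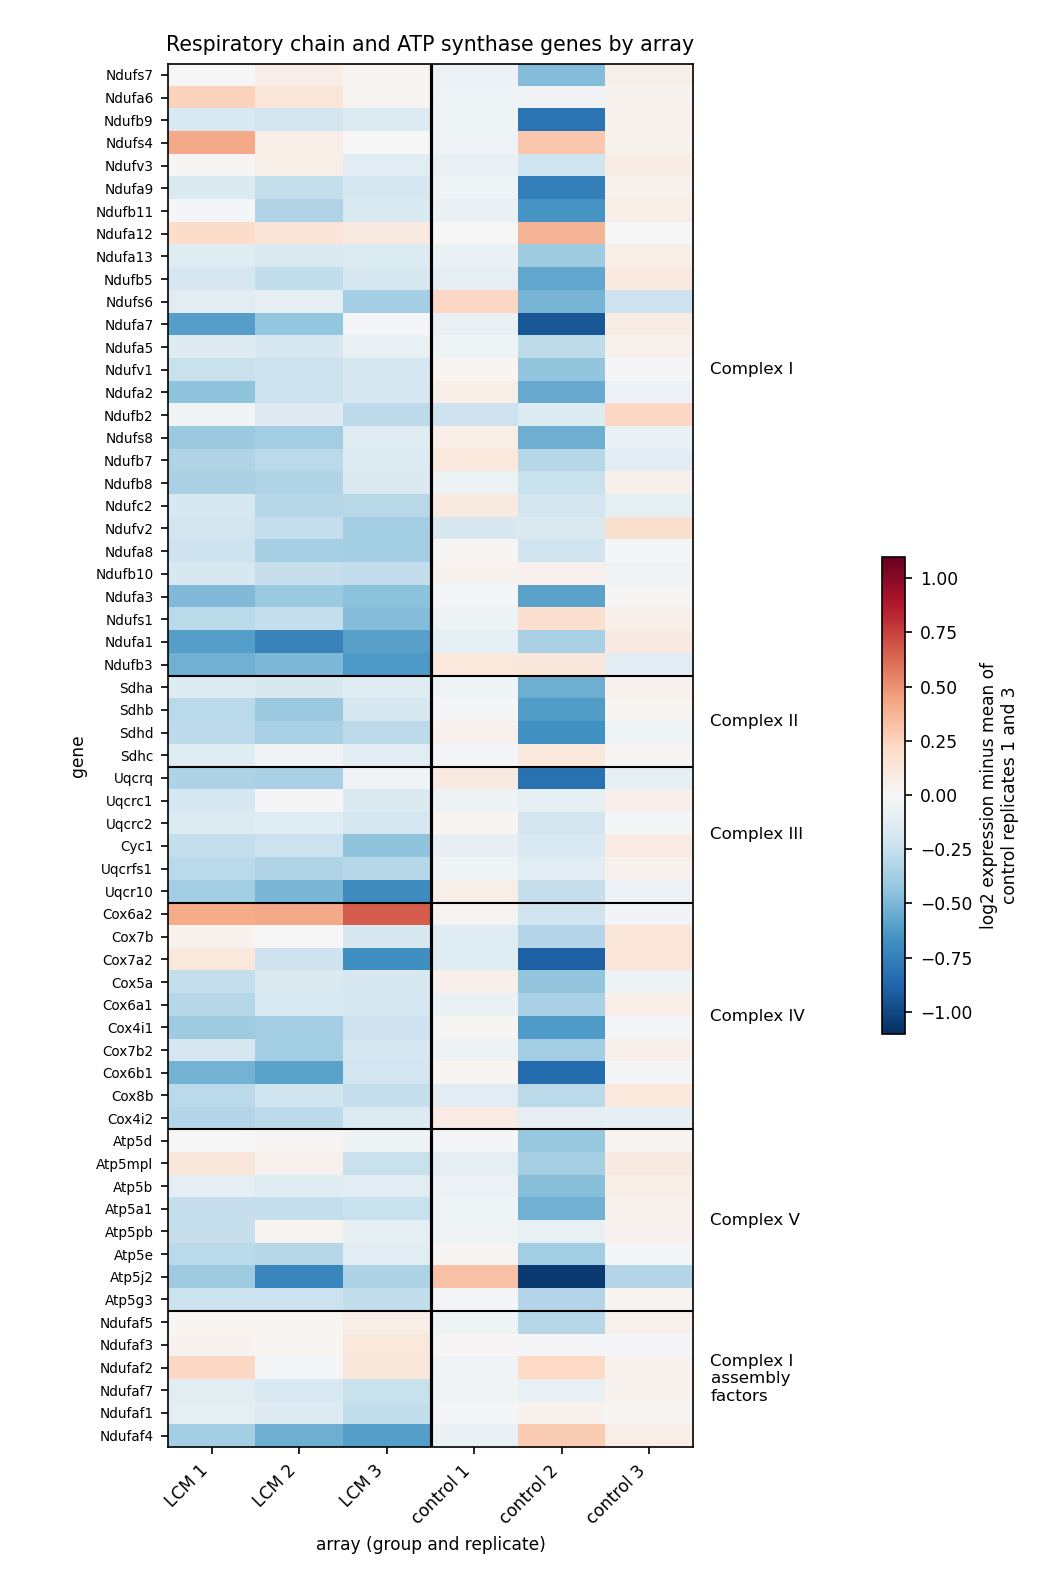
Log2 expression of each of the 61 genes (rows, grouped by complex and ordered by fold change) in the 3 LCM arrays and the 3 control arrays (columns), as a difference from the mean of control replicates 1 and 3 of that gene. Blue is lower and red is higher, and control replicate 2 is bluest in many rows of complexes I, II, IV and V, down to a difference of -1.05 in Atp5j2.

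Ndufb3 had log2 expression of 11.48, 11.51 and 11.37 in LCM replicates 1 to 3, against 12.12, 12.13 and 11.89 in control replicates 1 to 3. Every LCM array lay below every control array, and control replicate 2 was close to replicate 1. The log2 fold change was -0.59 ± 0.09 (SE, n = 3 each; adjusted p = 0.0181 from limma), which left 0.664 of the control level. The call held when control replicate 2 or 3 was left out and was lost when any LCM replicate or control replicate 1 was left out, with adjusted p-values of 0.0216 to 0.0964 over the 6 fits.

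Ndufaf4, which helps to build the arm of complex I that projects into the matrix, had log2 expression of 9.0, 8.84 and 8.77 in LCM arrays, against 9.30, 9.65 and 9.45 in control arrays. The groups did not overlap, and control replicate 2 was the highest of all 6 arrays. Its log2 fold change was -0.60 ± 0.11 (SE, n = 3 each; adjusted p = 0.0295 from limma). The call held without control replicate 2 and was lost when any other array was left out (highest adjusted p = 0.137).

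Cox6a2 had log2 expression of 8.87, 8.88 and 9.13 in LCM arrays, against 8.49, 8.24 and 8.43 in control arrays. Every LCM array was above every control array, with LCM replicate 3 the highest and control replicate 2 the lowest. The log2 fold change was 0.57 ± 0.11 (SE, n = 3 each; adjusted p = 0.0307 from limma), or 1.48-fold. The call was lost when any array other than control replicate 2 was left out (highest adjusted p = 0.119) and when each array was centred on its own median (log2 fold change 0.52).

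The promoters of the 2 genes that fell are shown because they are the genes on which the downward calls rest. Both are the 250 bases before the annotated start in RefSeq (GRCm38.p6), written 5′ to 3′ on the plus strand, for Ndufb3 at chr1:58586147-58586396 and for Ndufaf4 at chr4:24897833-24898082. Capitals mark matches to GCGCATG, the core of the motif of nuclear respiratory factor 1 (NRF1), a transcription factor known for regulating respiratory chain genes.
Ndufb3: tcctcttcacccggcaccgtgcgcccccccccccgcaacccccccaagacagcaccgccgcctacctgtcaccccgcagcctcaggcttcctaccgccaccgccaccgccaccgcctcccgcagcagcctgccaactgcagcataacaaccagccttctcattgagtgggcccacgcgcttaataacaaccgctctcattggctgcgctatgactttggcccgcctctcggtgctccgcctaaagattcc
Ndufaf4: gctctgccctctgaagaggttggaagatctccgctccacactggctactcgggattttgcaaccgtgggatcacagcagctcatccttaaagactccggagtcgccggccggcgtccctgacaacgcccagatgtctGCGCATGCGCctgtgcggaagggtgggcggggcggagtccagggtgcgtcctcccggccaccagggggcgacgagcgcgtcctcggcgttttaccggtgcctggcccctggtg
The Ndufaf4 promoter (66.4% G and C) held 2 overlapping matches, on the forward strand from 113 and on the reverse strand from 110 bases before the start, and the Ndufb3 promoter (65.6% G and C) held none. Of the 61 genes, 49 had a promoter in the table. GCGCATG was found, on either strand, in 5 of these 49 genes (10.2%; Cox6a1, Ndufa6, Ndufa8, Ndufaf4 and Sdhb), against 3.7% of 27025 genes searched in windows of the same length. CCGGAAG, the core of the motif bound by ETS factors such as GABP, was found in 6 of 49 (12.2%), against 7.8% of all genes. ACGTG, the core of the hypoxia response element, was found in 11 of 49 (22.4%), against 18.5% of all genes. None of these 3 motifs contains another, and a match is only a match of letters.

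More genes passed on the lower side without control replicate 2. Of the 61 genes, 9 fell (14.8%), against 4.39% of all genes, and 1 rose (1.64%), against 4.58% of all genes. The genes that fell in this fit were Ndufb3, Ndufa1, Ndufa3 and Ndufa8 of complex I, Sdhd of complex II, Uqcr10 and Uqcrfs1 of complex III, Cox4i1 of complex IV and the assembly factor Ndufaf4, and Cox6a2 was again the gene that rose. Their adjusted p-values were 0.0127 to 0.0482 (limma, 3 LCM and 2 control arrays). Over the 61 genes the log2 fold change then had a median of -0.23, against -0.040 over all genes. Of the 61, 53 (86.9%) had a negative value, against 59.5% of all genes. Control replicate 2 was the lowest control in 49 of the 61, and leaving out the lowest control of a gene lowers its fold change. Without control replicate 1 the median was -0.016 and 0 genes fell, against 0.47% of all genes. Without control replicate 3 it was -0.026 and 1 fell, against 1.13% of all genes.

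**Figure D2:**
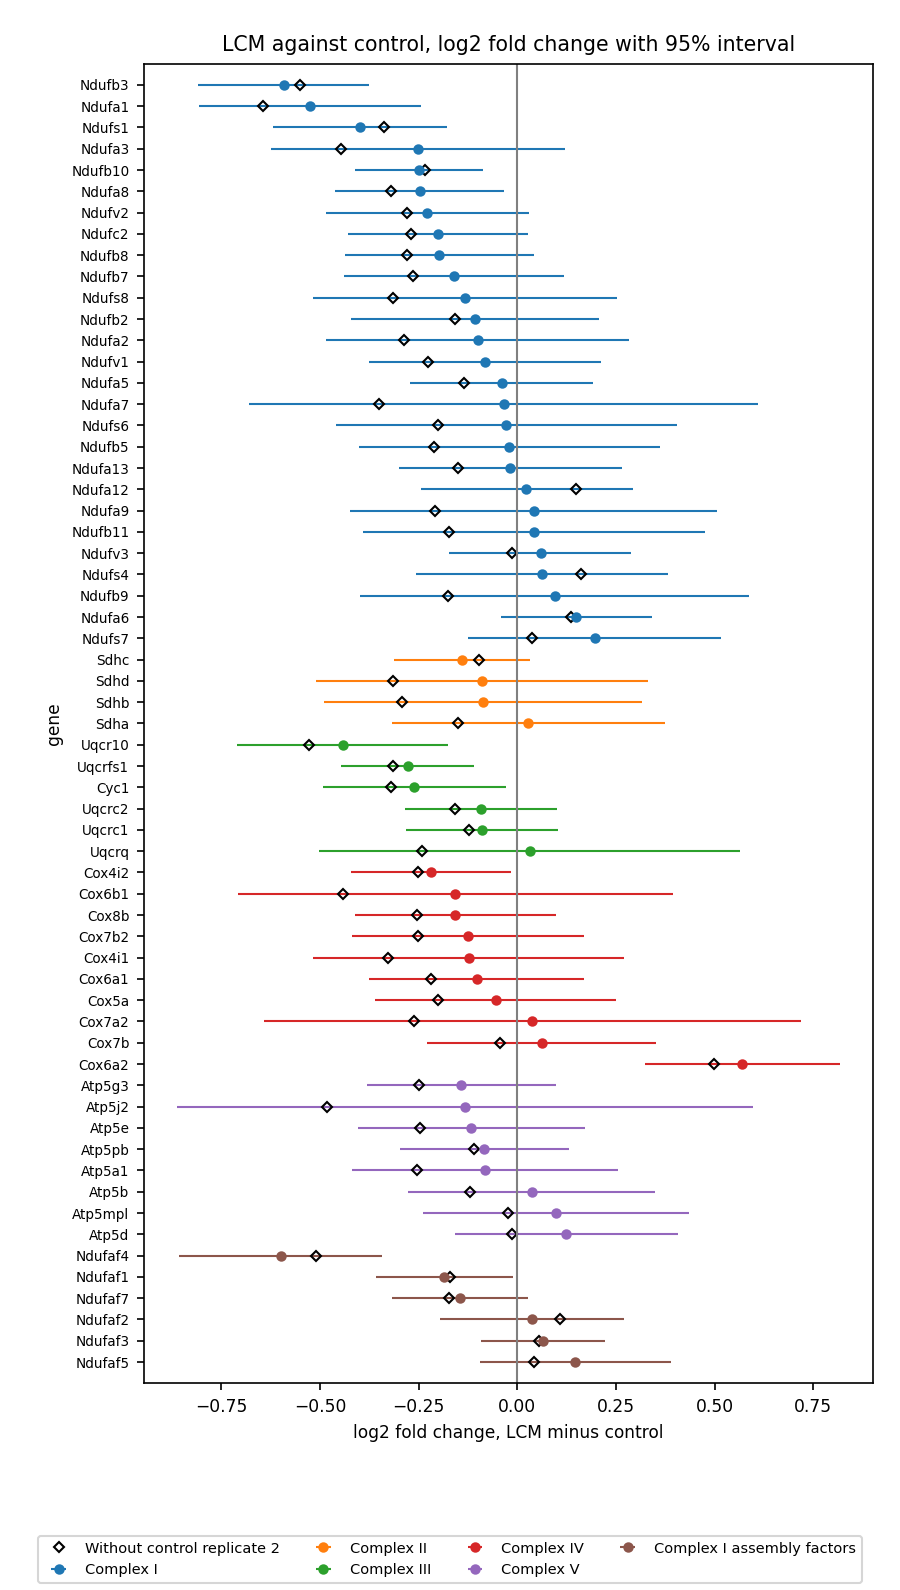
Log2 fold change (LCM minus control, horizontal axis) of each of the 61 genes with its 95% interval from limma (coloured points and lines, n = 3 each), grouped by complex, and the same value without control replicate 2 (open diamonds). Intervals of 12 genes (19.7%, against 19.6% of all genes) exclude 0, 11 on the lower side and 1 (Cox6a2) on the higher side. Without control replicate 2, the lowest control in 49 of the 61 genes, the value is negative in 53 of 61 genes (86.9%, against 59.5% of all genes).

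Control replicate 2 was low in these genes relative to the other controls. It was the lowest of the 3 controls in 49 of the 61 genes (80.3%), against 47.3% of all genes, and the lowest of all 6 arrays in 36 (59.0%), against 28.5% of all genes. Its median difference from the mean of the other controls, in log2 units, was -0.32 over the 61 genes, against -0.049 over all genes. It was as low in some related lists described below: coenzyme Q synthesis (-0.34), other electron donors to coenzyme Q (-0.35) and carriers and uncoupling proteins (-0.37). In others it was -0.11 (assembly factors outside the Ndufaf family), -0.13 (mitochondrial import), -0.093 (mitochondrial ribosome) and 0.069 (regulators of mitochondrial biogenesis). The LCM mean lay above control replicate 2 and below both other controls in 29 of 61 genes (47.5%), against 16.9% of all genes. Among LCM arrays the median SD of a gene was 0.086, while among control arrays it was 0.22 with replicate 2 and 0.079 without it. What set this array apart was not tested.

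Groups that did not overlap show the same dependence. All 3 LCM values lay below all 3 control values in 14 of the 61 genes (23.0%), against 14.7% of all genes, and above them in 2 (3.28%), against 12.8% of all genes. Without control replicate 2 the LCM values lay below both remaining controls in 41 genes (67.2%), against 26.8% of all genes, and above them in 3 (4.92%), against 19.3% of all genes. In 9 genes control replicate 2 was instead the highest control: Ndufb3, Ndufs1, Ndufb10, Ndufa12, Ndufs4, Sdhc, Ndufaf4, Ndufaf1 and Ndufaf2.

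**Figure D3:**
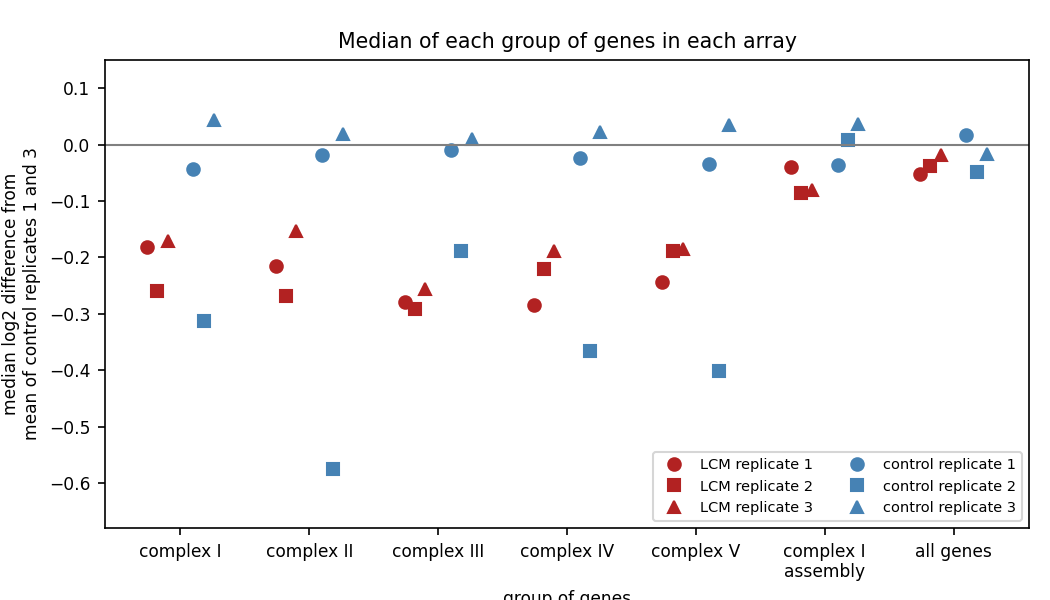
Median over the genes of each group (horizontal axis) of the log2 difference from the mean of control replicates 1 and 3 (vertical axis), in each LCM array (red) and each control array (blue). Control replicates 1 and 3 lie near 0 by construction, the LCM arrays lie at -0.15 to -0.29 in complexes I to V, and control replicate 2 lies lower than every LCM array in complexes I, II, IV and V but not in complex III or among the assembly factors.

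Complex I oxidises NADH. Of its 27 measured subunits, 1 fell (3.70%, against 1.97% of all genes), none rose (against 2.29% of all genes) and the others did not pass. The median log2 fold change was -0.081 with a range of -0.59 to 0.20. Without control replicate 2, 23 of 27 genes were negative (85.2%, against 59.5% of all genes) and 4 fell (14.8%, against 4.39% of all genes). The median without that array was -0.23. Leaving out another control moved it the other way, to -0.006 without control replicate 1 and -0.038 without control replicate 3. Median differences from the mean of control replicates 1 and 3 were -0.18, -0.26 and -0.17 in LCM arrays, against -0.31 in control replicate 2.

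After Ndufb3, the next lowest value in complex I was that of Ndufa1, a small membrane subunit needed to assemble the complex. It had log2 expression of 8.36, 8.23 and 8.37 in LCM arrays, against 8.87, 8.61 and 9.06 in control arrays, with no overlap between groups. The log2 fold change was -0.53 ± 0.12 (SE, n = 3 each), with an adjusted p of 0.0582 from limma that misses the threshold. It was -0.64 without control replicate 2, with an adjusted p of 0.0127.

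Ndufs1, which carries iron-sulfur clusters in the NADH-oxidising module, had log2 expression of 11.37, 11.40 and 11.19 in LCM arrays, against 11.61, 11.84 and 11.72 in control arrays. The groups did not overlap, yet the gene did not pass with control replicate 2 (adjusted p = 0.0647 from limma) or without it (0.0633). Ndufs7, which holds the last iron-sulfur cluster before coenzyme Q, had the highest log2 fold change of the complex. Its log2 expression was 12.34, 12.41 and 12.36 in LCM arrays, against 12.27, 11.86 and 12.40 in control arrays, so that the groups overlapped and only control replicate 2 was clearly lower. Its log2 fold change was 0.20 (adjusted p = 0.493 from limma), and 0.036 without that array.

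Ndufa3 and Ndufa8, accessory subunits of the membrane arm, illustrate 2 of the ways in which control replicate 2 entered, both as the lowest control. In other genes of complex I, such as Ndufb3 and Ndufs1, it was the highest control. Ndufa3 had log2 expression of 10.94, 11.02 and 10.97 in LCM arrays, against 11.41, 10.84 and 11.44 in control arrays, so that control replicate 2 was the lowest of the 6. Ndufa8 had 10.52, 10.38 and 10.37 in LCM arrays, against 10.76, 10.53 and 10.73 in control arrays, so that control replicate 2 was the lowest control but still just above every LCM array. With all arrays their log2 fold changes were both -0.25 (adjusted p = 0.442 for Ndufa3 and 0.194 for Ndufa8 from limma). Without that array they were -0.45 and -0.32, and both fell (adjusted p = 0.0136 for Ndufa3 and 0.0482 for Ndufa8).

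Complex I has a matrix arm, which takes up electrons from NADH and passes them to coenzyme Q, and a membrane arm, which pumps protons. Over the 13 measured subunits of the membrane arm the median log2 fold change was -0.20 and 11 values were negative (84.6%). Over the 14 of the matrix arm it was -0.031 and 8 were negative (57.1%), against 57.5% of all genes. Without control replicate 2 the median was -0.26 in the membrane arm, where all 13 values were negative and 4 genes fell (30.8%). It was -0.20 in the matrix arm, where 10 values were negative (71.4%) and 0 genes passed limma at an adjusted p under 0.05. Of all genes 59.5% were then negative and 4.39% fell. With all arrays, 4 genes of the membrane arm and 1 of the matrix arm were at an unadjusted p under 0.05, all on the lower side, against 10.3% of all genes. The difference between the arms was not tested, and the division into arms was made after the values were seen. For the whole complex the median was -0.006 without control replicate 1 and -0.038 without control replicate 3.

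Complex II, succinate dehydrogenase, has 4 subunits, all of them measured, and none passed with all arrays. Sdha, the flavoprotein that oxidises succinate, had log2 expression of 12.14, 12.11 and 12.15 in LCM arrays, against 12.24, 11.75 and 12.33 in control arrays (log2 fold change 0.028, adjusted p = 0.941 from limma, and -0.15 and 0.189 without control replicate 2). Sdhb, the iron-sulfur subunit, had 9.88, 9.77 and 10.00 in LCM arrays, against 10.15, 9.56 and 10.20 in control arrays (log2 fold change -0.087, adjusted p = 0.827, and -0.29 and 0.0815 without that array). In both genes the LCM arrays lay between control replicate 2 and the other controls.

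The median of the complex was -0.089 with all arrays and -0.22 without control replicate 2, and its direction turned without control replicate 1 (0.025) or 3 (0.013). The membrane anchors of complex II behaved unlike each other in control replicate 2. Sdhd had log2 expression of 10.96, 10.89 and 10.96 in LCM arrays, against 11.30, 10.58 and 11.20 in control arrays. Its log2 fold change was -0.090 (adjusted p = 0.829 from limma) with control replicate 2, and -0.31 (adjusted p = 0.0377) without it. Sdhc had 10.94, 11.03 and 10.95 in LCM arrays, against 11.06, 11.19 and 11.08 in control arrays, with no overlap and with control replicate 2 the highest. Its log2 fold change was -0.14 (adjusted p = 0.350 from limma) with that array and -0.098 (adjusted p = 0.361) without it.

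Complex III had the lowest median of the complexes, at -0.18 with all arrays and -0.28 without control replicate 2. In the latter fit all 6 values were negative, against 59.5% of all genes. It was also the complex in which control replicate 2 lay above the LCM arrays: the median differences from the mean of control replicates 1 and 3 were -0.28, -0.29 and -0.26 in LCM arrays, against -0.19 in control replicate 2. No subunit passed with all arrays, and 3 of 6 were at an unadjusted p under 0.05 on the lower side, against 10.3% of all genes. Over the 6 fits with an array left out the median was -0.13 (without control replicate 3) to -0.28.

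Uqcr10, a small subunit of complex III, had log2 expression of 9.55, 9.43 and 9.25 in LCM arrays, against 10.00, 9.68 and 9.87 in control arrays. Uqcrfs1, the Rieske iron-sulfur protein, had 8.78, 8.74 and 8.76 in LCM arrays, against 9.03, 8.96 and 9.12 in control arrays. Cyc1, the cytochrome c1 subunit, had 11.63, 11.65 and 11.45 in LCM arrays, against 11.80, 11.72 and 11.98 in control arrays. In all 3 genes the groups did not overlap, and control replicate 2 was the lowest control. The log2 fold change was -0.44 ± 0.11 for Uqcr10 (SE, n = 3 each; adjusted p = 0.0822 from limma) and -0.28 ± 0.07 for Uqcrfs1 (adjusted p = 0.0842). For Cyc1 it was -0.26 ± 0.10 (adjusted p = 0.201 from limma). With that array left out, Uqcr10 (-0.53, adjusted p = 0.0312 from limma) and Uqcrfs1 (-0.32, adjusted p = 0.0328) fell, while Cyc1 (-0.32, adjusted p = 0.0883) did not pass.

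Uqcrq, another small subunit of complex III, had the highest log2 fold change there, 0.031 (adjusted p = 0.959 from limma). Its log2 expression was 9.14, 9.12 and 9.44 in LCM arrays, against 9.58, 8.66 and 9.38 in control arrays. Control replicate 2 was far below the other 5 arrays, and without it the value was -0.24 (adjusted p = 0.252).

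**Figure D4:**
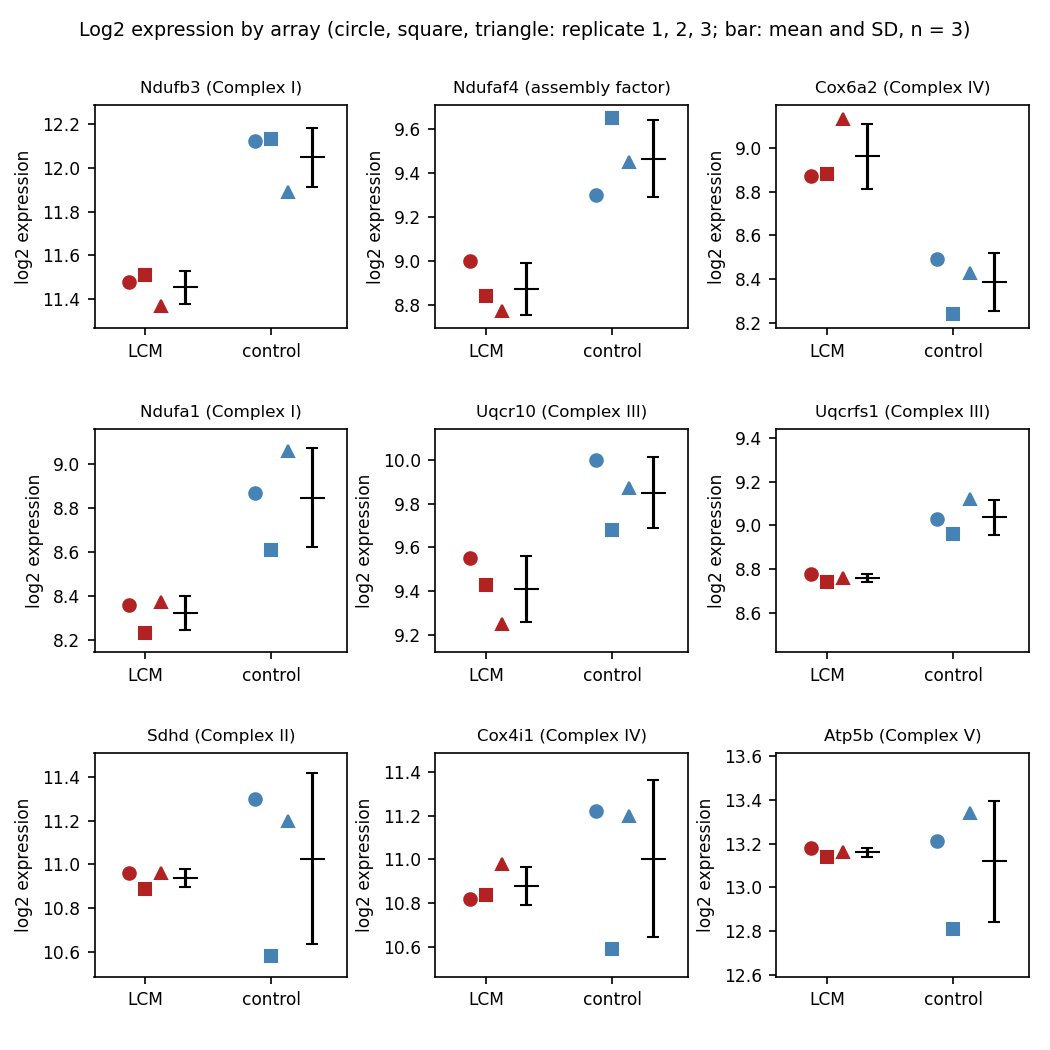
Log2 expression (vertical axis, each panel to its own range) of 9 genes in LCM and control arrays, with a point per array shaped by replicate number and a bar for the mean and SD (n = 3). LCM and control do not overlap in the upper 6 panels, and in Sdhd, Cox4i1 and Atp5b control replicate 2 (squares) lies below every LCM array while control replicates 1 and 3 lie above them.

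Complex IV, cytochrome c oxidase, has subunits with isoforms that differ between tissues or with oxygen. Of such pairs, Cox4i1 with Cox4i2 and Cox6a1 with Cox6a2 were measured. Besides the rise of Cox6a2, no other of its 10 genes passed with all arrays. Cox6a1, the widely expressed partner of Cox6a2, had log2 expression of 11.20, 11.35 and 11.32 in LCM arrays, against 11.44, 11.16 and 11.59 in control arrays. Its groups overlapped, and its log2 fold change was -0.10 (adjusted p = 0.683 from limma) with control replicate 2 and -0.22 (adjusted p = 0.140) without it.

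Cox4i1, the common form of subunit 4, had log2 expression of 10.82, 10.84 and 10.98 in LCM arrays, against 11.22, 10.59 and 11.20 in control arrays. The LCM arrays lay between control replicate 2 and the other controls, and the log2 fold change was -0.12 (adjusted p = 0.745 from limma) with that array and -0.33 (adjusted p = 0.0450) without it. Cox4i2, the isoform known for its induction in low oxygen, had 6.92, 6.95 and 7.09 in LCM arrays, against 7.33, 7.14 and 7.15 in control arrays. The groups did not overlap, but the log2 fold change of -0.22 ± 0.09 (SE, n = 3 each) did not pass (adjusted p = 0.220 from limma), nor did it without control replicate 2 (adjusted p = 0.127).

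Of the other isoforms, Cox7a2 and Cox8b were measured, while their partners Cox7a1 and Cox8a were not analysed here. Cox7a2, the widely expressed form of subunit 7a, had log2 expression of 7.95, 7.61 and 7.16 in LCM arrays, against 7.70, 6.94 and 7.97 in control arrays. Both groups were spread over more than the difference between them (log2 fold change 0.037, adjusted p = 0.962 from limma, and -0.26 and 0.489 without control replicate 2). Cox8b, an isoform of muscle and brown fat in mice, had 6.81, 6.89 and 6.85 in LCM arrays, against 6.99, 6.81 and 7.22 in control arrays (log2 fold change -0.16, adjusted p = 0.485, and -0.25 and 0.116 without that array). In all 10 genes of complex IV control replicate 2 was the lowest control. Without that array 9 of 10 values were negative, against 59.5% of all genes. The median log2 fold change of the complex was -0.11 with that array and -0.25 without it. It was -0.011 without control replicate 1 and -0.017 without control replicate 3.

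Complex V, ATP synthase, had no gene that passed limma at an adjusted p under 0.05, whether control replicate 2 was kept or left out, and none at an unadjusted p under 0.05 with all arrays. Atp5b, the catalytic beta subunit, had log2 expression of 13.18, 13.14 and 13.16 in LCM arrays, against 13.21, 12.81 and 13.34 in control arrays. The LCM arrays were close together, below control replicates 1 and 3 and above control replicate 2 (log2 fold change 0.036, adjusted p = 0.915 from limma). All 8 genes had control replicate 2 as the lowest control, against 47.3% of all genes, and all 8 had overlapping groups. Without that array all 8 log2 fold changes were negative (median -0.18), against 59.5% of all genes. With it 5 of 8 were negative (median -0.083), against 57.5% of all genes. The direction of the median turned without control replicate 1 (0.032) and it was near 0 without control replicate 3 (-0.010).

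The widest spread among controls in the 61 genes was that of Atp5j2, a small membrane subunit of ATP synthase. Its log2 expression was 9.47, 9.14 and 9.52 in LCM arrays, against 10.18, 8.81 and 9.54 in control arrays, an SD of 0.20 in LCM and 0.69 in control. Its log2 fold change of -0.13 had a 95% interval of -0.86 to 0.60, a wide range that held both falls and rises. The log2 fold change was -0.48 without control replicate 2 and 0.20 without control replicate 1. Atp5g3, a subunit c of the ring that turns in the membrane, had the lowest log2 fold change of the complex (-0.14, adjusted p = 0.507 from limma; -0.25 and 0.0525 without control replicate 2). Atp5d, the delta subunit of the central stalk, had the highest (0.12, adjusted p = 0.633; -0.013 and 0.917 without that array).

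Among the 6 Ndufaf genes control replicate 2 was the lowest control in 3 and the highest in 3, and its median difference from the other controls was 0.009. It was lowest by most in Ndufaf5 (-0.32) and highest by most in Ndufaf4 (0.27). Their median log2 fold change was -0.054 with that array and -0.064 without it, with 3 of 6 negative in either case. Ndufaf1, a member of the complex that assembles the membrane arm, had log2 expression of 9.85, 9.82 and 9.69 in LCM arrays, against 9.95, 10.00 and 9.97 in control arrays. The groups did not overlap, but the log2 fold change of -0.19 ± 0.07 (SE, n = 3 each) did not pass (adjusted p = 0.228 from limma). Ndufaf5, an enzyme that modifies Ndufs7, had 7.98, 7.98 and 8.03 in LCM arrays, against 7.91, 7.64 and 8.0 in control arrays. Its groups overlapped, and its log2 fold change was 0.15 (adjusted p = 0.493 from limma) with control replicate 2 and 0.042 without it.

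Another 7 genes of the families shared their row with another gene: Ndufa10, Ndufa11, Cox6c, Cox7a2l, Atp5j, Atp5o and Atp5c1. In the fit of every row their log2 fold changes were -0.27 to 0.16, and none passed (adjusted p of 0.340 to 0.925 from limma). No row was found for the subunits encoded in mitochondrial DNA.

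Genes that work with the respiratory chain were read in lists of their own. The counts of these lists, and of the cell markers below, can be set beside the shares over all genes. With all arrays 1.97% of all genes fell and 2.29% rose, and without control replicate 2 4.39% fell and 4.58% rose. Whether a list differed from these shares was not tested. Of 32 measured assembly factors outside the Ndufaf family, 2 fell and none rose (median log2 fold change -0.073), and 3 fell without control replicate 2 (median -0.086). Atpaf2, an assembly factor of ATP synthase, had log2 expression of 9.99, 10.11 and 9.98 in LCM arrays, against 10.45, 10.42 and 10.50 in control arrays (log2 fold change -0.43, adjusted p = 0.0247 from limma). Tmem126b, which acts with Ndufaf1 in complex I assembly, had 8.84, 8.72 and 8.72 in LCM arrays, against 9.14, 9.38 and 9.13 in control arrays (log2 fold change -0.45, adjusted p = 0.0419). In both the groups did not overlap, and control replicate 2 was near the other controls or above them.

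Of 7 measured enzymes that pass electrons to coenzyme Q from other sources, 1 rose and none fell. Gpd2, the mitochondrial glycerol phosphate dehydrogenase, had log2 expression of 8.97, 8.96 and 9.02 in LCM arrays, against 8.56, 8.69 and 8.53 in control arrays (log2 fold change 0.39, adjusted p = 0.0323 from limma), with no overlap. Without control replicate 2, 3 genes of this list fell, among them Etfdh, which links fatty acid oxidation to coenzyme Q (log2 fold change -0.40, adjusted p = 0.0384; with all arrays -0.33 and 0.107). The 10 genes of coenzyme Q synthesis gave 0 calls by limma with all arrays (median -0.020), and the lowest adjusted p was that of Coq7, a hydroxylase of that pathway (log2 fold change -0.34, adjusted p = 0.0734). Of these, 2 fell without control replicate 2.

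Among 13 genes of mitochondrial import, Timm22, the pore for carrier proteins of the inner membrane, fell (log2 fold change -0.46, adjusted p = 0.0182 from limma), and 4 of the list, Timm22, Tomm7, Timm50 and Tomm40l, fell without control replicate 2. Of 68 genes of the mitochondrial ribosome, Mrpl51 fell (log2 fold change -0.66, adjusted p = 0.0166) and none rose (median -0.071), while without control replicate 2 there were 2 that fell and 1 that rose (median -0.12). The 8 carriers and uncoupling proteins had a median of 0.15, which was -0.001 without control replicate 2, and none passed either way. Of 13 regulators of mitochondrial biogenesis none passed with all arrays (median 0.019), and 2 rose without control replicate 2 (median 0.096), Tfb1m (adjusted p = 0.0484 from limma), a factor for the mitochondrial ribosome, and Gabpb1 (adjusted p = 0.0157), a subunit of GABP. Ppargc1b, a coactivator of mitochondrial genes, was at -0.31 on the log2 scale (LCM minus control, adjusted p = 0.0816 from limma), and Nrf1 was at 0.22 (adjusted p = 0.134).

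Of 8 measured markers of the differentiated adipocyte, Adipoq (adiponectin; log2 fold change -0.59, adjusted p = 0.0170 from limma) and Cidec, a lipid droplet protein (-0.45, adjusted p = 0.0309), fell and none rose. Over the 8 markers log2 fold changes had a median of -0.38 (-0.32 with control replicate 2 left out, when 3 fell), and the summed level, as log2, was 15.02 to 15.11 in LCM arrays and 15.41 to 15.46 in control arrays, without overlap. Control replicate 2 differed from the other controls by a median of -0.025 in these markers, against -0.32 in the 61 genes. Single markers went both ways in that array. Slc2a4 was at 10.08, against 10.73 and 10.96 in control replicates 1 and 3, and Plin1 at 11.82, against 12.23 and 12.20. Fabp4 was at 12.20, against 11.65 and 11.78. The 6 markers of preadipocytes or fibroblasts had a median of -0.002 and none passed with or without control replicate 2, with a summed level of 14.55 to 14.71 in LCM arrays and 14.32 to 14.62 in control arrays. Of 4 macrophage markers (median -0.034), Cd68 rose (log2 fold change 0.44, adjusted p = 0.0446 from limma). The other 3 did not pass and had values below 0 (Itgam -0.079, Adgre1 -0.057 and Csf1r -0.012). The summed level of the 4 was 8.55 to 8.69 in LCM arrays and 8.31 to 8.45 in control arrays. Cd68 alone was at 7.90 to 8.04 and 7.39 to 7.66. The part of the adipocyte and macrophage markers in the values of the respiratory chain was not tested. Each of the 8 calls in these other lists was lost with any LCM array or control replicate 1 left out, and of the 8 only Mrpl51 and Cd68 held without control replicate 3.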

How the data were processed

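RNA of 6 cultures was hybridized to Affymetrix mouse Gene ST arrays. The deposited values are log2 expression per transcript, which the authors made with RMA (version, settings and build not given in the sources used here), 1 column for each array and replicates not pooled. Rows were named through the platform's annotation and checked against RefSeq (GRCm38.p6). Of 23332 rows, 14996 named a single gene, 1019 several and 7317 none listed; 14941 were found in RefSeq. Where a gene had several rows, which none of the 61 had, the row with the highest mean was used.

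LCM and control were compared with limma 3.58.1 in R 4.3.3 (lmFit, eBayes, two-sided, no block), with Benjamini-Hochberg adjustment over 14860 genes, in place of the methods' t-test, which was an alternative. Levels in log2 expression are not corrected for length or probe response. Levels of different genes, such as the cell markers, can therefore be set beside each other only roughly. A level summed over markers rests mostly on the brightest of them. An exact permutation test of 3 against 3 cannot reach a two-sided p below 0.1, and the number of arrays limits the precision. The fit was tested on simulated data with noise drawn separately for each gene and array, at the same spread in both groups. Such data hold no shift of an array shared by many genes, so that case was not covered. Tables were made with Python 3.11.15, pandas 2.3.3 and numpy 2.4.6, and figures with matplotlib 3.10.9.

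Named genes were those that passed, the highest and the lowest 2 of each complex, isoform pairs, complex II, Cyc1, the gene with the widest control spread and up to 3 genes of each other list by adjusted p. Ndufs1, Ndufa3, Ndufa8, Atp5b, Etfdh, Gabpb1 and genes listed without statistics were added after their values were seen, as was the division of complex I into arms. Members, lists and tests were chosen with earlier results of these data known.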

Additional observations from a re-analysis of the deposited data

How the results depend on the processing

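The count of genes that rose was 0, in place of 1, with every transcript row tested, with each array centred on its median, and with the unpaired and the paired t-test. The count that fell, 2, was 0 with every transcript row and with either t-test, 4 with dim genes left out, 9 with array weights and 1 with the replicate number as a block. Rows naming several genes were read in the fit of every transcript row, where they added no call, so both counts stayed at 0. With each array left out in turn, 0 to 1 genes rose and 0 to 9 fell (9 without control replicate 2, 1 without control replicate 3, 0 without any other). Over all genes 0.26% to 4.58% rose in these fits. The share that fell was 0.14% to 0.22% without an LCM array. It was 0.47% without control replicate 1, 4.39% without control replicate 2 and 1.13% without control replicate 3. Genes with all LCM values below all control values numbered 14 to 41 over these fits (41 without control replicate 2). Those with all values above numbered 2 to 5 (5 without control replicate 3). Over all genes the share below was 14.7% with all arrays and 26.8% without control replicate 2. The share above was 12.8% with all arrays and 19.3% without control replicate 2. Shares over all genes for the other fits are not given here.

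Over the 61 genes the median of the log2 fold changes lay between -0.23 (without control replicate 2) and -0.016 (without control replicate 1), and was -0.026 without control replicate 3. That of the assembly factors, -0.054, was -0.081 after a further quantile normalization and -0.104 with each array centred, and -0.099 to -0.033 with each array left out. Centring changed the split over all genes to 232 that rose and 408 that fell, in place of 341 and 292, and the count over all genes was 0 by the paired t-test, 104 and 66 by the unpaired t-test, and 889 and 975 with array weights. At an unadjusted p under 0.05, 11 of the 61 genes were below the threshold by the unpaired and 7 by the paired t-test. Deviations of same-numbered LCM and control arrays correlated at -0.23, 0.055 and 0.11, and those of differently numbered arrays at -0.28 to 0.29. These values showed no pairing by replicate number. Deviations from a mean of 3 arrays are tied to each other, so they cannot decide whether the cultures were paired. With the replicate block, 1 of the 61 genes rose and 1 fell, Ndufaf4 being lost, and 173 of all genes rose and 151 fell. None of the other genes of the families that the text names by rule changed its call under the block, and Cox6a2, Ndufb3 and Ndufaf4 kept their sign under every alternative run. Of the 8 genes called in the other lists, only Adipoq and Mrpl51 held under the block, 0 under either t-test or with every transcript row, and all 8 kept their sign.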
